A study of Homo sapiens with 4 samples.

Results

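The ChIP-seq list examined here holds the regions that passed the authors' cutoff for more DNA recovered by an antibody against the FLAG tag than in the matching input, in A549 cells carrying ATOH8. All rows of the deposited FLAG list were taken, which gave 9466 peaks of the 16650 in the series' 2 lists, the rest being SMAD3 peaks. A549 is an established lung adenocarcinoma cell line. It was stably transduced with retroviral ATOH8, and both the ChIP library and its input, sonicated chromatin without antibody, come from those cells. There was 1 library a side, so no value below has a replicate error and no difference is tested. The series holds no library labelled as cells without the transgene or without the tag. Whether the line is 1 clone, and which promoter drives the transgene, are not given in the sources used here. After removal of repeated positions the ChIP held 17133946 tags and the input 20785894, per the file headers. Positions are on the build hg38 (GRCh38).

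ATOH8 is a transcription factor of the basic helix-loop-helix (bHLH) class. Such proteins bind DNA as dimers, often with E proteins such as TCF3 or TCF12, at a short palindromic site called the E-box, written CANNTG. ID proteins lack the DNA-binding basic region and hold bHLH partners away from DNA. A peak list marks where the DNA recovered by the antibody passed a cutoff over the input. Without a library from cells lacking the tag, recovery through the tagged protein and other recovery by the antibody cannot be told apart. The list holds no measure of gene activity, and no marker of the cell type can be read from it.

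Promoter windows were taken from RefSeq sequence of GRCh38.p14, from 250 bases before to 50 after a gene start, so the start is at base 251 of each. FLAG summits, the positions of highest signal, lay in 72 of 35116 windows (0.205%). These 72 windows belonged to 70 genes and 63 peaks, since neighbouring windows can share a summit. Below are the 7 protein-coding windows among the 12 of highest pileup, in order of pileup, with THSD4 added after its values were seen because its gene body holds one of the strongest sites. Each is printed 5′ to 3′ on the gene's strand, with every CANNTG in capitals. Of the 72 windows, 20 hold no CANNTG, and none of the 31 peaks of 8 tags or fewer is shown.
KCNMA1 (chr10:77350712-77351011, minus strand): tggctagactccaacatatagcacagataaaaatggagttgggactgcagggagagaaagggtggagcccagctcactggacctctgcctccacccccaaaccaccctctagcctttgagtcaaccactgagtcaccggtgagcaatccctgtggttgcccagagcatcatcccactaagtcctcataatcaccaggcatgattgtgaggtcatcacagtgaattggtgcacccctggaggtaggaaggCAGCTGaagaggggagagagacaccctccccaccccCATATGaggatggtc
TTYH2 (chr17:74213321-74213620, plus strand): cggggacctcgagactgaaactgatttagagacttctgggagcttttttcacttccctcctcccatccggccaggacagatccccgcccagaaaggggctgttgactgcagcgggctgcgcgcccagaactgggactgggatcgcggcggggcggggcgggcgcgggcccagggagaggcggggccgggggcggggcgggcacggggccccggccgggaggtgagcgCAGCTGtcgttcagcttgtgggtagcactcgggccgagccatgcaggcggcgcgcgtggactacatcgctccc
ELOVL5 (chr6:53348901-53349200, minus strand): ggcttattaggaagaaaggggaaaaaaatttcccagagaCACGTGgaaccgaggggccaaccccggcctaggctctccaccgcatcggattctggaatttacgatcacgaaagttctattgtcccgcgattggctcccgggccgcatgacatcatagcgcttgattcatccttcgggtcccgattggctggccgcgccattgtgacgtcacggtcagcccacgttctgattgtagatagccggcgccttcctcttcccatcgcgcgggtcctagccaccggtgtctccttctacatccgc
AHCYL2 (chr7:129368130-129368429, plus strand): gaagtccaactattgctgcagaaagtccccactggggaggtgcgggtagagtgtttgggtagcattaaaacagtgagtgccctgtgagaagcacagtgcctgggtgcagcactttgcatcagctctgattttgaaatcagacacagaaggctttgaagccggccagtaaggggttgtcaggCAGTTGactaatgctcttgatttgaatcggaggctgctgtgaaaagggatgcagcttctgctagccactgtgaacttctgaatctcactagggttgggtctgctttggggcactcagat
ERF (chr19:42254586-42254885, minus strand): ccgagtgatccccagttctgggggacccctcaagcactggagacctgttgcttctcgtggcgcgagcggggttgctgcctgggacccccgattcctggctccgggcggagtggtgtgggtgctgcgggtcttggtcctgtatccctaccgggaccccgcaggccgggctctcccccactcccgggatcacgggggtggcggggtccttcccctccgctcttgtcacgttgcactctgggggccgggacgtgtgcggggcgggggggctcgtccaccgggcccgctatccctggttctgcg
VASH2 (chr1:212950291-212950590, plus strand): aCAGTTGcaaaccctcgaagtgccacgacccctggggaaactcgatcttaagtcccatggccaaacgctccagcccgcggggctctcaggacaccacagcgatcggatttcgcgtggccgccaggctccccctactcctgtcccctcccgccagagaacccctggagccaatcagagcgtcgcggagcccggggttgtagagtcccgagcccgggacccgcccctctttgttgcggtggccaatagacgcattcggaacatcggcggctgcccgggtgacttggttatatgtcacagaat
ZNF565 (chr19:36215035-36215334, minus strand): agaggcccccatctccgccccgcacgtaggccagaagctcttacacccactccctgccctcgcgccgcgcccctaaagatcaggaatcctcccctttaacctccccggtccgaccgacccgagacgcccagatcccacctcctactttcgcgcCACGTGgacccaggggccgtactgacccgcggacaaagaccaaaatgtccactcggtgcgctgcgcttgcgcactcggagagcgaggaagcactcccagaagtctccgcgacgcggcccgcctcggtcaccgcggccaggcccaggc
THSD4 (chr15:71096644-71096943, plus strand): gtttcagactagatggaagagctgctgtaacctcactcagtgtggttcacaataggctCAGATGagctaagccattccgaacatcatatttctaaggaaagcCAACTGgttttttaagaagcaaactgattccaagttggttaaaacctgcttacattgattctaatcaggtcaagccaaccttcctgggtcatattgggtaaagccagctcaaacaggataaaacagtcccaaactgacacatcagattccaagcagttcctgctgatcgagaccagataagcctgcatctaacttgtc

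The strongest of these promoters was an inner start of KCNMA1, which encodes the pore-forming subunit of a large-conductance potassium channel activated by calcium and voltage. Its summit held 44 FLAG tags (95% Poisson interval 32.0 to 59.1, counting error only) and lay 15 bp upstream of that start. The same summit fell in the window of the antisense RNA KCNMA1-AS3. Of the E-boxes in the KCNMA1 sequence, a CAGCTG and a CATATG, the nearer was centred 16.5 bp from the summit. At TTYH2, which encodes a membrane protein of the tweety family, 36 tags (25.2 to 49.8) peaked 138 bp upstream of the start, and the same summit fell in the window of MGC16275, a noncoding RNA that starts nearby on the other strand. The only E-box there, a CAGCTG, was 117.5 bp away from the summit. ELOVL5, an elongase of polyunsaturated fatty acids, had 32 tags (21.9 to 45.2) with the summit 94 bp upstream, and its single CACGTG lay 114.5 bp off.

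Pileup fell quickly below these genes. AHCYL2 had 17 tags over an input background of 4.95, which left it at 3.03-fold. The ERF window, whose gene encodes an ETS-family repressor, held 14 tags at 3.21-fold, with a q above 0.05 and no CANNTG at all. VASH2, a vasohibin, had 12 tags 241 bp upstream of its start, with a CAGTTG centred 5.5 bp from the summit. ZNF565, a zinc finger gene, had 12 tags at 2.54-fold and a q above 0.05. Noncoding RNAs held the other windows among the 12 genes named by pileup, namely LOC124904864 (19 tags), LOC105371777 (17 tags) and LOC105370913 (12 tags), the last with 6 E-boxes. Of the 63 peaks, 17 had a q under 0.05 and 31 held 8 tags or fewer.

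E-boxes were about as frequent in these windows as in promoters at large. CANNTG, which reads the same on both strands, was present in 52 of 72 windows with a summit (72.2%, 95% Clopper-Pearson interval 60.4 to 82.1%) and in 24117 of all 35116 (68.7%). Among windows whose peak had a q under 0.05 it was present in 17 of 20 (85%, 62.1 to 96.8%). CAGCTG, one form of CANNTG, was found in 21 of 72 (29.2%, 19.0 to 41.1%), in 10 of those 20 (50%, 27.2 to 72.8%) and in 17.9% of all windows. CATATG was in 5 of 72 (6.94%) and 3.04% of all, and CAGATG, counted on both strands, in 6 of 72 (8.33%) and 14.7% of all. Windows with a summit were richer in G and C, with a median of 65.5% against 58.7%. In the 20 whose peak had a q under 0.05 the median was 60.2%, closer to that of all windows. These windows share peaks and gene starts, so they are not independent, and a match is only a run of letters.

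Most of the list is weak. The median FLAG peak held 8 tags (95% Poisson interval of a single count of 8, 3.45 to 15.8) at a fold enrichment of 3.16, with an upper quartile of 11 tags. Fold enrichment is the authors' ratio of pileup plus 1 to local background plus 1. Of 9466 peaks, 5280 (55.8%) had 5 to 8 tags, and 0 of these had a q under 0.05, where q is the deposited value for p after correction for multiple testing. The file header says that q would not be calculated, yet the column holds values, which are used as they stand. The share with such a q was 45.5% of the 2761 peaks with 9 to 15 tags, 75.1% of the 680 with 16 to 25 tags, and 96.0% of the 177 with over 100. The weakest −log10 p admitted was 2.190, against 2.187 for the authors' cutoff. At that edge, 5 peaks shared a pileup of 18 tags, a background of 9.89 and a fold of 1.74.

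Widths were bounded below by the modelled fragment length of 241 bp, which 3045 peaks (32.2%) had exactly. The median width was 276 bp, and 97 peaks reached 1000 bp. The median was 254 bp at 5 to 8 tags and 401 bp above 100 tags, but the steps between were uneven, with 339 bp at 16 to 25 tags and 300 bp at 26 to 50. The summit lay a median of 41 bp from the peak's centre, and 233.5 bp in peaks of 1000 bp or more. Only 7 peaks reached 2000 bp. They were 4941 bp wide on chromosome 4 downstream of TRIML1, 4714 bp on chromosome 2 far from genes, 4378 bp at HDX on chromosome X and 3698 bp on the contig KI270789.1. The remaining ones measured 2767 bp in TGFBR3, 2493 bp upstream of KPNA3 and 2043 bp in SAMD4A.

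The input behind each peak can be read back from the deposited columns. The peak caller compares the pileup with the largest of 4 backgrounds: a genome-wide mean, here 1.53 tags, or the scaled input count in a window of 241 bp, 1 kb or 10 kb. Pileup and fold give that background, and for all 9466 peaks it equalled one of these values to within 2e-05 of the background plus 1. The genome-wide mean applied to 33.3% of peaks and the 241 bp window to 33.3%. Backgrounds under 5 tags were found at 8477 peaks, with a median pileup of 8 and a median fold of 3.16. The other 989 (10.4%) had a median pileup of 33 tags but a lower median fold of 2.59.

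**Figure D1:**
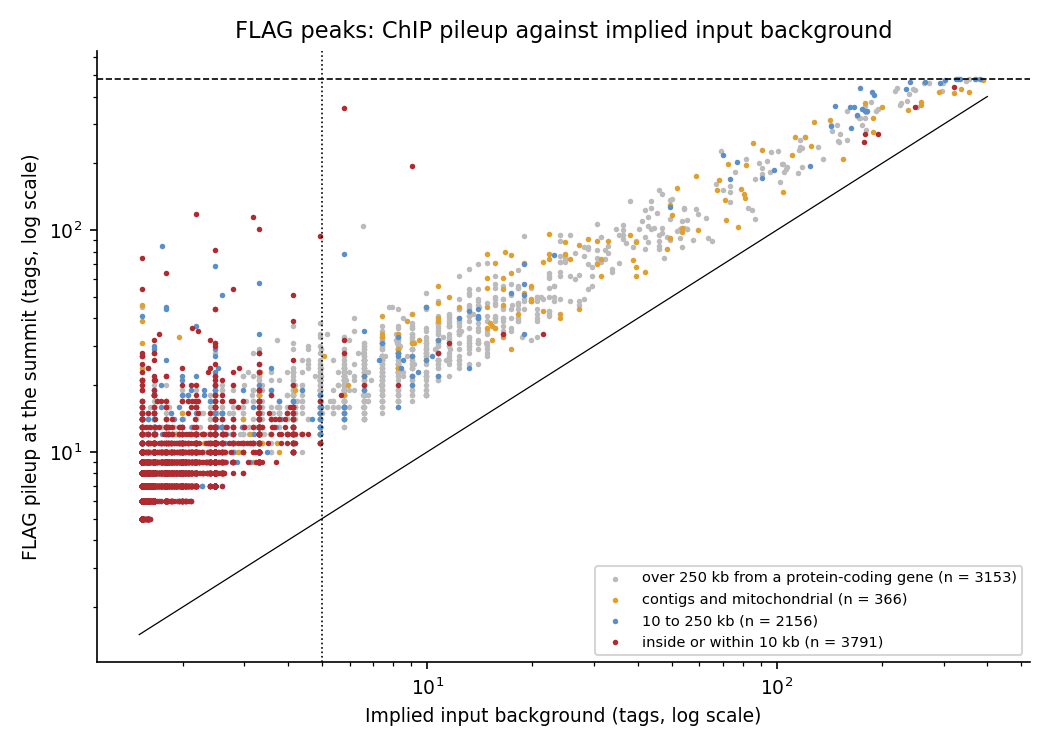
Each point is 1 FLAG peak, with its implied input background in tags on the x axis and its FLAG pileup in tags on the y axis, both log scales, coloured by distance of the summit from the nearest protein-coding gene. The solid line marks equal values, the dotted line a background of 5 tags and the dashed line a pileup of 482; of the 3188 peaks inside a gene, all but 8 lie left of the dotted line, and the highest pileups lie at the upper right, where the input is also high.

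The highest pileups on chromosomes 1 to 22 were not at genes. Of the 20 highest, from 434 to 482 tags, 19 lay over 100 kb from a protein-coding gene, and ATOH8 held the other. They fell on 3 chromosomes, with 11 on chromosome 16, 8 on chromosome 1 and 1 on chromosome 2. Their backgrounds ran from 173 to 381 tags and their folds from 1.26 to 2.504, so the input was deep at each of them too. With 1 tag kept per position on each strand, a fragment of 241 bp cannot reach a pileup above 482. The top peak (chr16:46389618-46391481) stood at exactly 482, against 462 input tags in the 241 bp window before scaling. The ceiling for the scaled input was 397. Of these 20 sites, 0 were among the 20 highest by fold on the same chromosomes.

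The 19 sites away from genes lay in dense runs. On chromosome 16, 24 peaks lay between 46380720 and 46422498, with pileups of 8 to 482 tags, and the nearest protein-coding gene was SHCBP1. Another 16 peaks lay between 34571567 and 34595852 on the same chromosome, with 127 to 478 tags. On chromosome 1 the longest run of the list spanned 143184835 to 143274277 and held 43 peaks of 15 to 462 tags, and a shorter one, from 125178901 to 125183886, held 6 peaks of 327 to 481 tags. As background, these are parts of the genome close to centromeres, where long repeated sequence is common. Summits at most 10 kb apart formed 81 runs of 5 or more peaks, which took in 729 peaks (7.70%). Of the 70 runs on assigned chromosomes, 63 lay over 250 kb from a protein-coding gene and 1, the run in IL33, touched one.

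At ATOH8, the gene on the retrovirus, 1 peak lay inside the gene (chr2:85754257-85754901, summit 732 bp after the start). It held 442 FLAG tags (402 to 485), while the input held 389 tags in the 241 bp window, a scaled background of 321. That background was 210 times the genome-wide mean, so this stretch was also far above the mean in the input. The fold was 1.38 with a −log10 q of 5.79. Given the pileup ceiling of 482 tags, so deep a background also bounds the fold from above. A second peak 9.71 kb downstream of the gene had 12 tags over a background of 2.38. The input moves with the pileup here, and its part in the result was not tested.

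Relative to genes, 3188 of 9100 summits on assigned chromosomes (35.0%, 34.1 to 36.0%) lay inside a protein-coding gene, and a further 603 (6.63%) within 10 kb of one. Another 984 (10.8%) lay 10 to 50 kb away, 1172 (12.9%) 50 to 250 kb away and 3153 (34.6%) beyond 250 kb. The share of the genome in each class was not computed. No preference for or against genes is therefore read from these shares. Of the summits outside protein-coding genes, 986 lay inside another annotated gene, 842 of them in a long noncoding RNA gene. Place shifted with pileup. The share inside a gene was 44.5% at 5 to 8 tags, 30.2% at 9 to 15 and 9.68% at 16 to 25. The share beyond 250 kb went from 19.0% to 43.4% and 76.9% over the same classes.

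**Figure D2:**
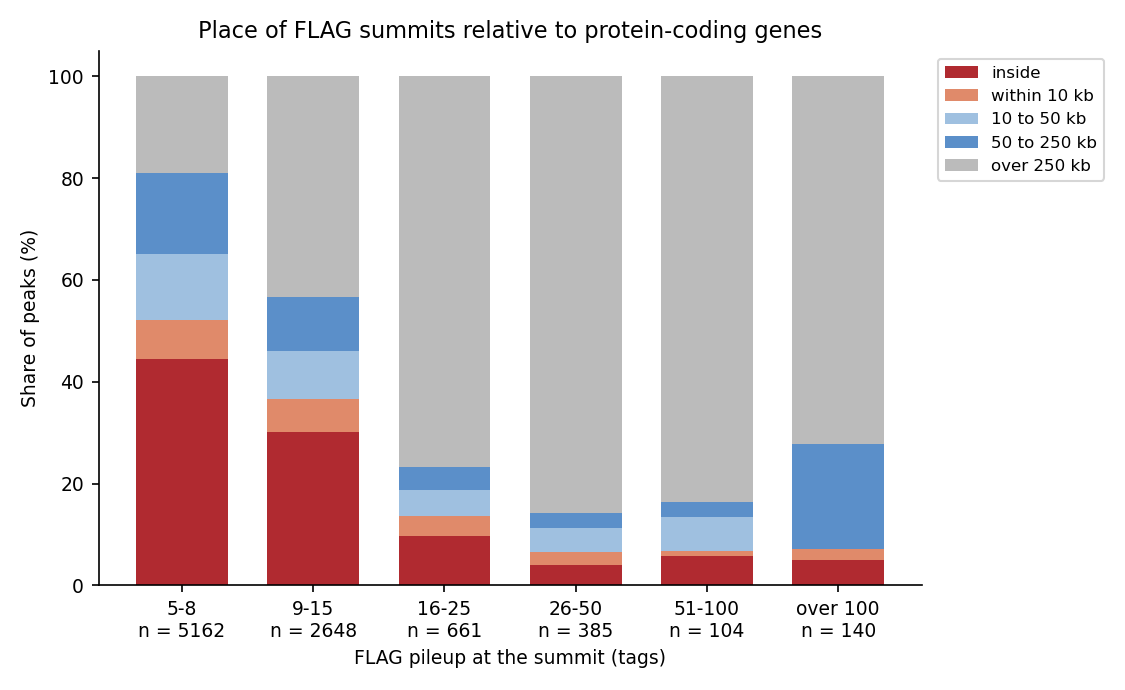
Stacked bars give the share of FLAG peaks on assigned chromosomes (y axis, percent) by distance of the summit from a protein-coding gene, for 6 classes of pileup in tags (x axis, number of peaks under each). Summits inside genes make up 44.5% of the lowest class and 5% of the highest.

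Peaks with high input lay mostly far from genes. Of 873 peaks with a background of 5 tags or more, 789 (90.4%) lay beyond 250 kb and 8 (0.916%) inside a protein-coding gene. Among the 8227 peaks with a lower background, 38.7% were inside and 28.7% beyond 250 kb. With a low background and a q under 0.05, 443 of 1631 (27.2%, 25.01 to 29.4%) were inside and 767 (47.0%, 44.6 to 49.5%) beyond 250 kb. In the 63 peaks of low background with over 25 tags, 21 (33.3%, 21.95 to 46.3%) were inside a gene, with a median fold of 12.9 and a median width of 984 bp. In the same group, 19 lay beyond 250 kb, with a median fold of 5.86 and a median width of 308 bp. The sites inside genes were thus wider and higher in fold than the sites far from them, by their medians. Their median pileup was also higher, 44 against 29 tags, and their median background lower, 2.47 against 4.57 tags. The groups are therefore not matched in pileup or input.

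Chromosomes differed in where their peaks lay. Chromosome 17 had the highest share of summits inside protein-coding genes, 165 of 312 (52.9%), followed by chromosome 15 with 133 of 275 (48.4%). Chromosome 21 had the lowest of the numbered chromosomes, 23 of 132 (17.4%). Peaks with a q under 0.05 made up 43.3% of chromosome 19, where the median pileup was 12 tags and 91 of 321 peaks had a background of 5 or more. Chromosome 8 had the lowest such share of the numbered chromosomes, 14.9%, with only 5 of 538 peaks on a high background. Counting only peaks within 250 kb of a gene, chromosome 20 was the densest, at 3.82 peaks per Mb of the span up to its last annotated gene or peak. Chromosome 17 came next with 3.28 and chromosome 12 with 3.19, and chromosome 13 was the sparsest of the numbered chromosomes with 0.612. Only peaks near genes were counted while the whole span was the divisor, so chromosomes with few genes score low by construction. These densities and the shares inside genes were not set against how much of each chromosome lies in genes.

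The sites at genes were examined after setting aside high input. In all, 530 peaks on chromosomes 1 to 22 had a q under 0.05, a background under 5 tags and a summit in or within 10 kb of a protein-coding gene. They held a median of 11 tags at 4.15-fold, with a median width of 359.5 bp, and 437 (82.5%) were inside a gene. The 25 with the highest pileup ran from 27 to 118 tags at 22 genes, with folds of 6.75 to 37.4 and a median width of 968 bp. Of these, 17 were inside the gene and 8 outside it. Just past the last of them came peaks of 27 tags in IL22RA2 and of 26 tags in ENAH and NPSR1.

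The highest pileup of these was in CP. In this gene, which encodes the copper-carrying ferroxidase ceruloplasmin, the main peak (chr3:149178685-149180630) held 118 tags (97.7 to 141) over a background of 2.19, from 11 input tags in 1 kb. In or within 10 kb of CP lay 4 FLAG peaks in all, the others with 32, 25 and 8 tags. In THSD4, whose product associates with fibrillin microfibrils, a peak 180 kb after the nearest start in the table, which is not the one printed above (chr15:71294731-71296564), held 115 tags (94.9 to 138) over 3.18. THSD4 held 5 more peaks, of 9 to 12 tags, among them the one at its promoter printed above with 11 tags. A site 2.46 kb outside ITIH2, a heavy chain of the inter-alpha-trypsin inhibitors that bind hyaluronan, had 28 tags over 1.65. P4HA3, a subunit of collagen prolyl 4-hydroxylase, had 30 tags over 2.47.

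IL33, the gene of an alarmin cytokine, held a group of sites. Its 5 peaks lay within 5529 bp from first to last summit, with gaps of 651 to 1741 bp. In order along the gene they held 81, 94, 64, 25 and 195 tags, over backgrounds of 2.47, 4.95, 1.79, 2.47 and 9.07. All 5 were 403 to 487 bp wide, while the sites of the 25 at other genes were at least 632 bp wide. The peak of 195 tags (chr9:6255822-6256308, 19.5-fold) is outside the 25 only because its background, 11 input tags in 241 bp, passed 5 tags.

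Among genes of signalling and cell contact, TGFBR3 encodes betaglycan, a co-receptor that presents TGF-beta ligands. Its peak (chr1:91838950-91841716) lay 45.7 kb after the nearest start in the table and held 44 tags (32.0 to 59.1) over 3 input tags in 241 bp. CDH1, the gene of the epithelial adhesion protein E-cadherin, had 51 tags (37.97 to 67.1) over a background of 4.12 at chr16:68739549-68740553. A second peak close by, at chr16:68740906-68741192, held 11 tags. MAP3K14, the NF-kappaB-inducing kinase, had 27 tags 4.05 kb upstream, at the genome-wide background of 1.53. ANXA2, a calcium-dependent membrane-binding protein, had 39 tags 9.63 kb upstream over 4.12. FMNL2, a formin, and AFAP1, an actin filament-associated protein, each had 28 tags inside the gene, over 1.53 and 1.65.

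The remaining sites were at genes of varied function. ALKBH5, an RNA demethylase, had 101 tags (82.3 to 123) over 4 input tags in 241 bp, 959 bp after its start (chr17:18184141-18185065). SAMD4A, an RNA-binding translational regulator, had 54 tags over 2.78 (chr14:54577829-54579871). A peak 6.88 kb upstream of KPNA3, a nuclear import receptor of the importin-alpha family, held 75 tags (59.0 to 94.0) at the genome-wide background of 1.53 (chr13:49798505-49800997). NPAS4, itself a bHLH factor of neurons induced by activity, had 35 tags 794 bp after its start, over 2.21. COA1, a factor of mitochondrial respiratory chain assembly, had 34 tags over 1.71, DNAL1, an axonemal dynein light chain, had 28 tags over 3.30, and a site 1.10 kb from HRCT1 also had 28 tags over 3.30. ABCB11, the bile salt export pump, had 31 tags 7.20 kb upstream. Of the 25 sites, 5 lay within 1 kb of an annotated start: ALKBH5, KCNMA1, TTYH2, NPAS4 and ELOVL5. CP, CDH1, P4HA3, ITIH2 and HRCT1 have no start in the table, so their sites could not be counted at their own start.

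**Figure D3:**
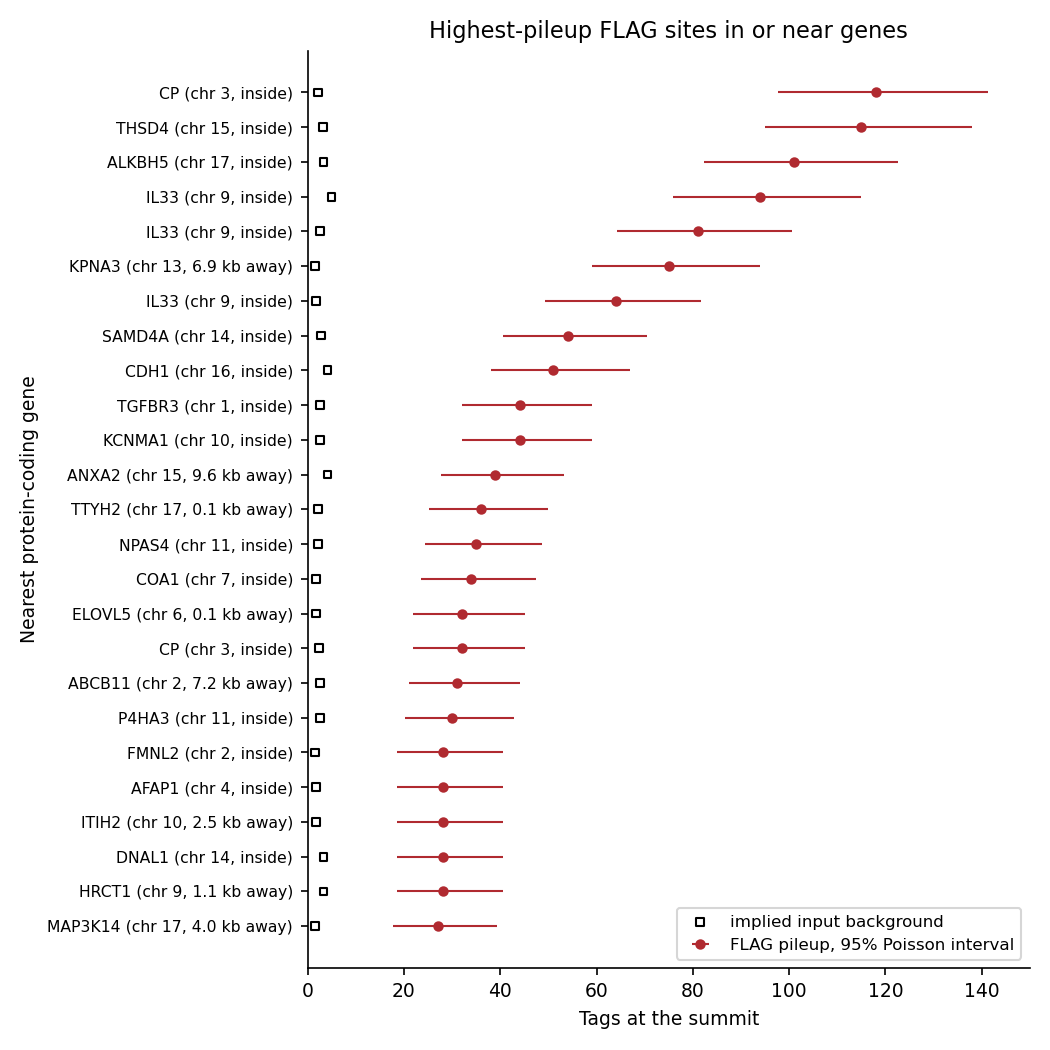
Filled points give the FLAG pileup in tags (x axis) of the 25 highest-pileup sites at protein-coding genes (y axis, gene, chromosome and distance), with 95% Poisson intervals that cover counting error only. Open squares give the implied input background in tags. Every square lies below 5 tags, and the lowest pileup is 27.

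Strong sites also lay between genes. With the same limits on q and background, and on the same chromosomes, the highest pileup over 10 kb from a protein-coding gene was 85 tags (67.9 to 105) at chr12:31748717-31749827, 20.3 kb upstream of AMN1. It was followed by 69 tags 63.0 kb downstream of JCAD, a gene of endothelial cell junctions, and by 58 tags on chromosome 16, 221 kb from LOC124903767. A peak of 51 tags lay 54.2 kb upstream of TMEM97. Further sites held 45 tags each, 298 kb from TRIML1 and 17.9 kb upstream of HJV, the BMP co-receptor hemojuvelin, and 44 tags lay 34.7 kb downstream of MALT1. These sites were chosen after their values were seen. Apart from the chromosome 16 site, at 446 bp, they were 1111 to 4941 bp wide.

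Gene starts held a local rise in the number of peaks, most of them weak. The start table covered 15843 of 20037 protein-coding genes and 23 chromosomes, and chromosome 8, with 538 peaks, was not used here. In bins of 0.5 kb, 97 summits lay in the first bin after a start and 46 in the last bin before it. Bins beyond 2 kb held 10 to 28, with a median of 18.5. Of peaks with a q under 0.05, 18 and 11 fell in those first bins, against 0 to 6 in bins beyond 2 kb. As a share, 230 of 8562 summits (2.69%, 2.35 to 3.05%) lay within 1 kb of a start. Among peaks with a q under 0.05 and a low background it was 38 of 1551 (2.45%, 1.74 to 3.35%). The median distance from a start was 139 kb for all peaks and 296 kb for the latter.

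**Figure D4:**
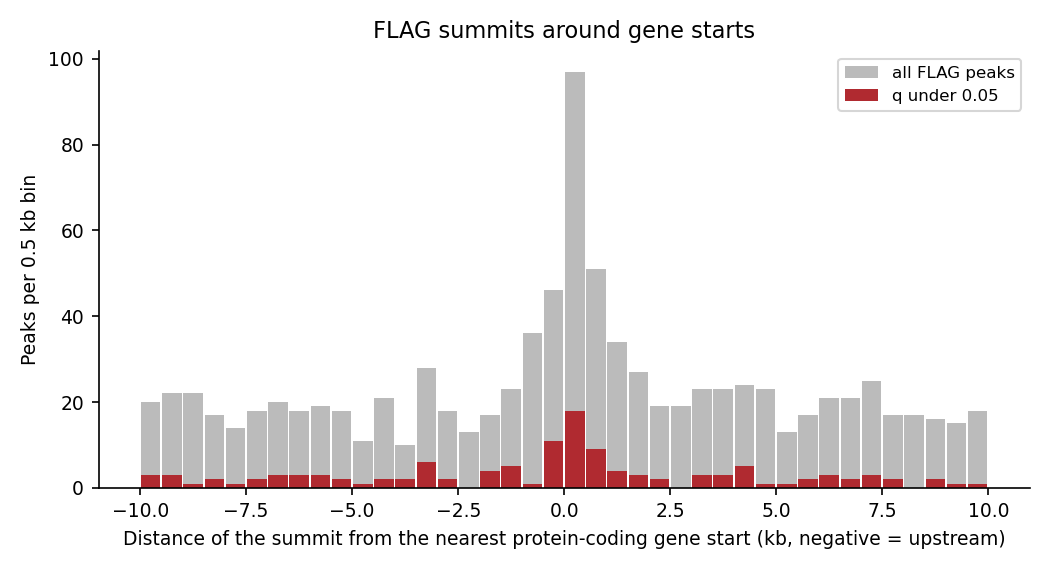
Bars give the number of FLAG summits per 0.5 kb bin (y axis) by distance from the nearest protein-coding gene start in kb (x axis, negative upstream), for all peaks in grey and for those with a q under 0.05 in red. The first bin after the start holds 97 summits, while bins beyond 2 kb hold 10 to 28.

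For the pathways the study's title names and for the tissue, 15 gene lists were counted for peaks in or up to 10 kb from each gene. Any FLAG peak was found at 3295 of 20037 protein-coding genes (16.4%), and one with a q under 0.05 at 560 (2.79%), or 547 (2.73%) with a background under 5. Genes with a peak of that q were long, with a median of 102 kb against 24.1 kb for all genes. Of the 346 listed genes, each counted once, 74 (21.4%) had a peak and 26 (7.51%) one with a q under 0.05. The lists were drawn up with earlier results of these peaks known, so nothing particular to them is read from the higher shares.

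Among bHLH genes, 1 of 7 E proteins and ID factors had a peak with a q under 0.05. It was TCF12, an E protein, with 14 tags over 2.58 inside the gene, while ID1, a BMP target, had 9 tags at 9.41 kb and a −log10 q of 0.519. Of 40 proneural and tissue bHLH factors, only ATOH8 had any peak, a share of 2.5% against 16.4% of all genes. These genes are short, with a median length of 3.25 kb, and of all protein-coding genes under 10 kb 6.09% had any peak. NPAS4, a bHLH factor outside these lists, had the peak of 35 tags given above (11.2-fold, −log10 q of 24.8). In the TGF-beta list, 6 of 18 ligands and receptors had a peak and 2 had one with such a q, TGFBR3 and LTBP4, a latent TGF-beta binding protein with 15 tags over 3.54. TGFB2 had 3 peaks, the highest of 8 tags with a −log10 q of 0.779. Of 19 BMP genes, BMPER, an extracellular BMP modulator, had 14 tags over 1.67 (−log10 q of 5.09) and BMPR1B 8 tags. SMADs and their cofactors had 4 of 18 with a peak and 0 with a q under 0.05, the highest being FOXH1 (11 tags), SMURF2 (9 tags), ZEB1 and TGIF1 (8 tags each). Beside 16.4% and 2.79% of all genes, the shares were 33.3% and 11.1% for TGF-beta genes and 10.5% and 5.26% for BMP genes. They were 22.2% and 0% for SMADs and cofactors, and 28.6% and 14.3% for the 7 E proteins and ID factors.

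Most cell cycle genes with a peak had none with a q under 0.05. The same held for all protein-coding genes, where 560 of 3295 with a peak had such a q. Of 22 cyclins, CDKs and CDK inhibitors, 5 had a peak and 0 one with a q under 0.05: CCND3, CDK6 and CCNH with 8 tags, CCNE2 with 7 and CDKN1B with 5. In the list of 22 RB and E2F regulators, 3 had a peak and 1, LIN52, a subunit of the DREAM repressor complex, had a q under 0.05 with 10 tags at 4.35-fold. Of 20 mitotic kinases and checkpoint genes, 4 had a peak and 0 such a q, with 11 tags near CDC25B, 8 in INCENP and near AURKA, and 6 in NEK2. Beside the background of 16.4% and 2.79%, the shares of these lists lay on both sides, at 13.6 to 22.7% and 0 to 4.55%.

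In the lists of junction, matrix and lung lineage genes, the peak with the highest pileup was the one of 51 tags at CDH1. Of 25 junction genes, 8 had a peak and 3 a q under 0.05. CDH1 and its neighbour CDH3, P-cadherin, share the same peaks, and the other was CTNNA1, alpha-catenin, with 9 tags. Of 29 integrins, laminins and matrix genes, 12 had a peak and 4 such a q, among them ITGB5, an integrin beta subunit (20 tags over 2.11), and the laminin genes LAMA4 and LAMB1 (10 tags each). In the lung lineage list, KRT8 and KRT18, a keratin pair, share 1 peak of 18 tags over 2.47 in KRT8, and SOX9, a factor of distal lung progenitors, had 12 tags 302 bp outside the gene. With these, 5 of 26 had a peak and 3 a q under 0.05. No peak at these lung lineage genes passed 18 tags. Any peak was found at 32% of junction, 41.4% of matrix and 19.2% of lung lineage genes, against 16.4% of all genes. For a q under 0.05 the shares were 12%, 13.8% and 11.5%, against 2.79%. Matrix genes are long, with a median of 75.2 kb, and 26.6% of all genes of 50 to 200 kb had any peak. As these lists were drawn up with earlier results known, nothing particular to them is read from this.

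Of 24 hypoxia genes, 5 had a peak and 3 a q under 0.05: EGLN1, an oxygen-sensing prolyl hydroxylase (20 tags over 4.12), PLOD2, a collagen lysyl hydroxylase (13 tags at 2.68 kb), and ENO1, a glycolytic enolase (10 tags). NRF2 targets had 5 of 23 and 2, namely ABCC2, an export pump (21 tags over 1.65, 6.42 kb outside), and TXNRD1, thioredoxin reductase (14 tags). Receptor tyrosine kinases and RAS pathway genes had 6 of 29 and 2, SOS1 (11 tags) and the insulin receptor gene INSR (10 tags). Plasma proteins had 6 of 24 and 3: CP and ITIH2 as above, and SERPINA3, antichymotrypsin, with 13 tags at 1.58 kb. Across these lists any peak was found at 20.7 to 25% of genes, against 16.4% of all protein-coding genes. For a q under 0.05 the shares were 6.90 to 12.5%, against 2.79%. Here too the lists were drawn up with earlier results known, so nothing particular to them is read from this. Apart from ATOH8, CP, ITIH2, CDH1 with CDH3, and TGFBR3, no peak at the listed genes exceeded 21 tags.

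**Figure D5:**
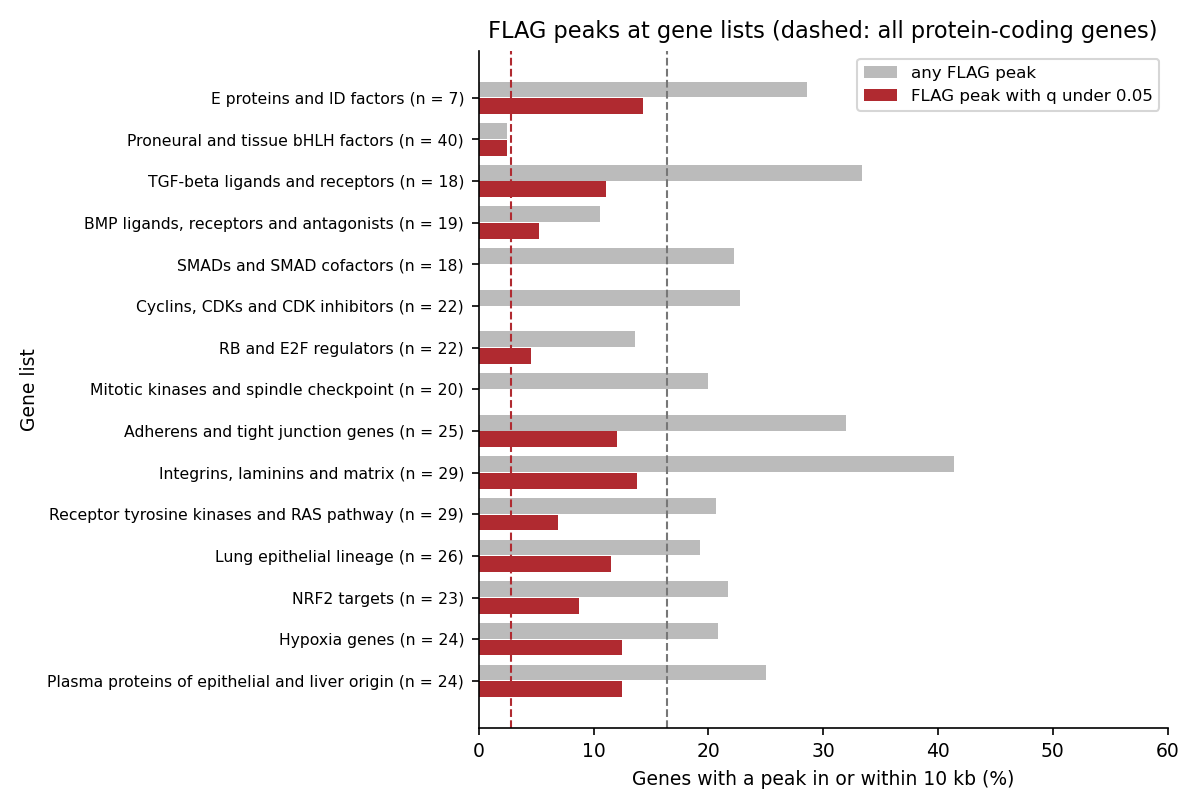
Bars give the share of genes of each list (y axis, number of genes in brackets) with a FLAG peak in the gene or within 10 kb (x axis, percent), grey for any peak and red for one with a q under 0.05. Dashed lines mark the shares of all protein-coding genes, 16.4% and 2.79%; the SMAD, cyclin and mitotic lists have no red bar.

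Gene length moved with these shares. Of all genes of 50 to 200 kb, 4.70% had a peak with a q under 0.05, and of those over 200 kb 11.6%, against 0.861% of genes under 10 kb. Of listed genes, 15 of 94 (15.96%, 9.22 to 24.95%) had one at 50 to 200 kb, 3 of 22 (13.6%, 2.91 to 34.9%) above 200 kb, 6 of 137 (4.38%, 1.62 to 9.29%) at 10 to 50 kb and 2 of 93 (2.15%, 0.262 to 7.55%) under 10 kb. For all genes of 10 to 50 kb the share was 1.49%. The lists were drawn up with earlier results of these peaks known, and some listed genes share a peak. Nothing particular to the lists is therefore read from these shares or their intervals. Multiple peaks with a q under 0.05 and a low background were rare at 1 gene. In or within 10 kb, 505 genes had 1 such peak, 38 had 2, and 4 had 3 or more. Those were IL33 and THSD4 with 4 each, and CP and CUBN with 3 each, the last encoding cubilin, a receptor for vitamin B12 bound to intrinsic factor.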

How the data were processed

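The labels describe A549 cells stably transduced with ATOH8, with 1 FLAG ChIP and 1 input. The submitters' processing notes name FastQC 0.11.8, Bowtie2 (its version is not given in the sources used here) and the build hg38, and the file header names MACS2 2.2.7.1. Per the file headers, 1 tag per position was kept, single-end tags were extended to 241 bp and the p cutoff for a peak was 0.0065. Raw depths were 20778990 tags (ChIP) and 23675838 (input). The authors deposited, for each peak, the pileup signal in tags, the fold enrichment as a ratio, and a p and a q, both on the −log10 scale. Pileup is a depth-limited count, so a low one has a wide interval.

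Computed here with Python 3.11.15, numpy 2.4.6, pandas 2.3.3 and scipy 1.17.1: the implied background (pileup plus 1 over fold, minus 1), its match to input windows (input scaled by 0.824), distances of summits to RefSeq genes and starts of GRCh38.p14, and motif matches. The deposited p equalled a Poisson tail of pileup over that background within 0.00387% of −log10 p. The code was tested on simulated data. Summits were not split by exon or intron, and 1 listed gene is counted but not reported here by name. Named sites are the 20 highest pileups on chromosomes 1 to 22, the 25 highest with q under 0.05, background under 5 tags and a gene within 10 kb, 12 genes whose promoter window holds a summit, and up to 4 members per list with such a q. List members named without such a q, and sites between genes, were chosen after their values were seen. The peaks, lists and rules were chosen with earlier results of these data known. Alternatives covered q, fold, background, window, gene type and summit against whole peak.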

Additional observations from a re-analysis of the deposited data

How the results depend on the processing

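No paired analysis was possible because each side has 1 library and no result comes from a test. Settings that combine q with background were chosen after seeing the data. Restricting the list to a q under 0.05 moved most values: the median pileup to 15 tags, the median width to 315 bp, the share of summits inside a protein-coding gene to 19.9%, the share over 250 kb away to 58.8%, genes with a peak inside or up to 10 kb away to 560 and promoter windows with a summit to 20. With a background under 5 tags the median width was 272 bp, the share inside 38.7% and the share over 250 kb away 28.7%. With both limits the shares were 27.2% and 47.0%, and 547 genes had a peak. A fold of 5 or more gave 28.8% inside. Counting all annotated genes gave 45.9% inside and 22.3% over 250 kb away. A window of 50 kb raised the genes with a peak to 6159, and any base of a peak in place of the summit raised the promoter windows to 158. Ranking by fold left 0 of the 20 highest-pileup sites. Of the 20 highest by fold on chromosomes 1 to 22, 10 are among the 25 sites at genes and 18 have a background under 5 tags. Values not named here stayed within their 95% interval, or within 1.5 times for counts. Depth limits the list: no peak of 8 tags or fewer had a q under 0.05, so enrichment of that size was not detectable past that threshold.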

Other observations

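Sequences outside chromosomes 1 to 22 held further strong peaks. The widest high peak on chromosome X, at HDX, a homeobox gene, held 354 tags (318 to 393) over 7 input tags in 241 bp. Its fold of 52.4 was the highest of the list. IQSEC2, a synaptic exchange factor on the same chromosome, had 54 tags over the genome-wide background of 1.53 (chrX:53265351-53266742, 21.7-fold). Chromosome X had 114 peaks in all, 45 of them inside a protein-coding gene, and chromosome Y had 6, all over 250 kb from one.

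On 114 contigs and alternate sequences lay 365 peaks, of which 173 (47.4%) had a q under 0.05 and 115 a background of 5 tags or more. The highest pileup there, 476 tags on ML143380.1, had 471 input tags in the 241 bp window and a fold of 1.23. KI270729.1 held a run of 33 peaks and KI270747.1 one of 21, with median backgrounds of 1.99 and 1.53 tags. The 1 mitochondrial peak had 421 tags over a background of 355, the lowest fold of the list at 1.18.

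Of 1562 microRNA hairpins, 9 had a FLAG summit within 1 kb, with MIR127 and MIR136 sharing the same peak. Of those peaks, 0 had a q under 0.05. The number to be met by position alone was not computed, so nothing about microRNAs is read from this count.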
